A study of Homo sapiens with 12 samples.

Results

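Heterotrimeric G proteins relay signals from G protein-coupled receptors at the cell membrane. Each holds a Gα subunit, which binds GTP when the receptor is engaged, and a Gβγ dimer, which signals on its own once it is released. Receptors for chemokines and lipids use Gαi and Gα13 to steer the migration and retention of B lineage cells. Every Gγ subunit ends in a CaaX box, a cysteine followed by 3 residues, and the last residue sets which lipid is attached to the cysteine and tethers the dimer to the membrane.

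The genes described here are GNG11 and 9 other subunit genes, 10 of the 57905 human genes in the deposited matrices: the Gγ genes GNG11, GNG2, GNG5, GNG7 and GNG10, the Gβ genes GNB1 and GNB2, and the Gα genes GNAI2, GNAI3 and GNA13. They were selected on measured values, since GNG11 had the lowest ratio between the libraries among all genes measured. The ratios between the libraries are therefore given as a description, with no test, and GNG11 passed the filter on low levels only through the control.

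The study profiled Nalm-6, an established line of human B-cell precursor leukemia, by 3′ scRNA-seq, with 1 library per group. The first library carries the label of induced RUNX1: stable Nalm-6 cells transduced with the Tet-On regulator and a response vector with RUNX1 cDNA, kept in 500 ng/ml doxycycline for 72 h. The second is the control, which its genotype label describes as empty vector at 72 h, while DMSO, a solvent, is what its title gives and no doxycycline is listed for it. The methods of the study describe DMSO-treated Nalm-6 cells as controls of a drug experiment, so the vector, the inducer, the time and the culture cannot be told apart from the RUNX1 label. Whether each line was 1 clone is not given in the sources used here. RUNX1 transcript itself had 2288 UMIs in the RUNX1-labelled library and 5282 UMIs in the control, or 30.4 CPM in the RUNX1-labelled library and 69.7 CPM in the control, a log2 ratio of -1.20, so the group is called the RUNX1-labelled library throughout, after its label only. Whether transcripts of the vector end where the 3′ assay would count them as RUNX1 was not tested. ChIP-seq, which accounts for the other 10 samples, was not analysed here.

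The RUNX1-labelled library gave 4800 passing cells of 5491 barcodes and the control 5598 of 6073. Passing cells held 75350615 human UMIs, molecules that are each counted once, in the RUNX1-labelled library and 75754137 in the control, and mitochondrial transcripts took 13.1% of UMIs in the RUNX1-labelled library and 9.45% in the control. B precursor markers were present in both libraries (12 of 12 annotated genes measured, IGLL1 at 1520 CPM in the RUNX1-labelled library and 1593 CPM in the control), whereas no megakaryocyte, myeloid, T cell or erythroid marker reached 10 CPM and PF4, PPBP and HBB had 0 UMIs in both. The B precursor markers were not all alike in level. DNTT and CD22 were at least 2-fold lower in the RUNX1-labelled library (log2 ratios -1.60 and -1.16), beside 4.10% of all measured genes. VPREB1 and CD79A were at least 2-fold higher (1.18 and 1.02), beside 5.18%. These ratios are over all passing cells. The 12 megakaryocyte and platelet markers summed to 6.69 CPM in the RUNX1-labelled library and 6.24 CPM in the control. Both libraries shared 10 cell barcodes among passing cells. In cells thinned to 8000 UMIs, 2288 of 4188 cells of the RUNX1-labelled library (54.6%) were called G1, against 337 of 5185 control cells (6.50%). Cells called G1 are named non-cycling below and those called S or G2/M cycling, a division of a score in which 458 cells of the RUNX1-labelled library and 253 control cells lay within 0.05 of the limit. Both libraries were scored together, so the calls are relative to that pool, and whether cells called G1 had left the cell cycle was not tested. By these states, CD79A lay at a log2 ratio of 0.83 in non-cycling and -0.05 in cycling cells. In the same order, VPREB1 lay at 1.42 and 0.86, DNTT at -2.70 and -0.95, and CD22 at -1.99 and -0.95. Each of these markers was thus within 2-fold in cycling cells.

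The coding ends of the 5 Gγ genes show how GNG11 differs from the others in kind. The last 4 sense codons and the stop codon were read from GRCh37 at the GENCODE end of each coding sequence, and the codon of the final residue is in capitals.
GNG11: tgtgttattTCAtaa
GNG2: tgtgccatcCTTtaa
GNG5: tgttcctttTTGtag
GNG7: tgtattattTTAtaa
GNG10: tgtgctttaCTCtga
All 5 runs open with a cysteine codon, the first position of the CaaX box. The final codon is one for serine in GNG11 and one for leucine in each of the other 4. A serine at this place marks the Gγ subunits that receive a farnesyl group, as known for GNG11 and for the GNGT1 and GNGT2 products of photoreceptors, and leucine those that receive the longer geranylgeranyl group. The runs lie at chr7:93555514-93555528 for GNG11 and chr14:52433391-52433405 for GNG2 on the plus strand. Those of GNG5 and GNG7 lie at chr1:84967528-84967542 and chr19:2515020-2515034 on the minus strand, and that of GNG10 at chr9:114429206-114429220 on the plus strand. Each is in the last coding exon. The proteins coded run to 73 residues for GNG11, 71 for GNG2 and 68 for each of GNG5, GNG7 and GNG10.

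GNG11 lies on chromosome 7 of GRCh37 at 93551047 to 93557922 on the plus strand, with 2 exons, both coding in part, and no other annotated gene overlaps it on either strand. Its promoter window, 250 bases before to 50 after the start in the RefSeq table (GRCh38.p14, chr7:93921485-93921784, plus strand), is printed because GNG11 is the gene on which the comparison turns and the library is labelled for a DNA-binding factor.
GNG11 promoter: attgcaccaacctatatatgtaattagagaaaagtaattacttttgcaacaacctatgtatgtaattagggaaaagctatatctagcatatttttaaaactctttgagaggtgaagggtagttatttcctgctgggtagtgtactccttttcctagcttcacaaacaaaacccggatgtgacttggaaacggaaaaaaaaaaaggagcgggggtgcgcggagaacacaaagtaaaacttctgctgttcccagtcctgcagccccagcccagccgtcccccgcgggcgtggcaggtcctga
The window was searched on both strands for the RUNX letters TGTGGT and TGCGGT, the ETS letters CCGGAA and AGGAAG and the GATA letters AGATAA, and any match would be in capitals. None of these was in it. Over the 35116 promoters of the table, 19.6% held the RUNX letters, 45.4% the ETS letters and 10.3% the GATA letters. All 10 genes were in the table, and 3 of them (GNB1, GNG2 and GNAI2) had a RUNX match in at least 1 of their promoters, that of GNB1 at position -110 from the start. Only 7 of the 10 genes had a single promoter in the table, while GNG2 and GNAI2 had several. The 19.6% is a share of single promoters, so the 3 genes are not set against it. No match says only that these letters are not in this window.

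GNG11 was the gene with the lowest ratio of the 7980 genes that reached 10 CPM in either library, called measured genes below. It had 194 UMIs or 2.57 CPM (2.23 to 2.96) in the RUNX1-labelled library, against 2363 UMIs or 31.2 CPM (29.9 to 32.5) in the control. CPM is the UMIs of a gene per 1000000 human UMIs of the library. The log2 ratio was -3.60 (-3.82 to -3.39), 12.1-fold lower in the RUNX1-labelled library. All intervals are exact 95% intervals for counting error only, and no test between the conditions could be run on single libraries. Of the 9 members at 10 CPM or more, 1 was at least 2-fold lower and 0 at least 2-fold higher, beside 4.10% of all genes lower and 5.18% higher, and since the members were chosen with this contrast in view nothing is read from that count. The value depended on the cells kept: among cells under 10% mitochondrial UMIs, 599 in the RUNX1-labelled library and 3651 in the control, GNG11 stood at 7.21 CPM (5.44 to 9.36) in the RUNX1-labelled library and 31.6 CPM (30.1 to 33.2) in the control, a log2 ratio of -2.13. There 35 of the 56 UMIs of the RUNX1-labelled library lay in 5 cells.

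The other 4 Gγ genes sorted into a lower GNG7 and genes near the middle of all genes. GNG7, a Gγ subunit known from striatal neurons, had 2651 UMIs or 35.2 CPM in the RUNX1-labelled library and 4968 UMIs or 65.6 CPM in the control. Its log2 ratio was -0.90 (-0.97 to -0.83), just inside 2-fold, and it passed 2-fold at -1.03 with trimmed mean of M values (TMM) factors. GNG5 was the most abundant Gγ transcript, with 207 CPM in the RUNX1-labelled library and 225 CPM in the control, and its log2 ratio of -0.12 (-0.15 to -0.09) turned to 0.09 when mitochondrial and ribosomal protein genes were taken out of the totals. A 3′ assay counts 1 end per molecule, so levels of different genes are compared without division by length. GNG2, a broadly expressed Gγ subunit of blood cells, had 13.0 CPM in the RUNX1-labelled library and 12.3 CPM in the control, a log2 ratio of 0.09 (-0.04 to 0.22) whose interval held 0. GNG10 was close to the limit of counting, with 42 UMIs in the RUNX1-labelled library and 57 UMIs in the control. It shares its last exons with the readthrough gene DNAJC25-GNG10 on the same strand, which had 0 UMIs, and reads that fit both genes are not counted by Cell Ranger, so its level is uncertain.

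GNB1 and GNB2, which form the propeller that holds Gγ, were alike in level and within 1.5-fold between libraries. GNB1 had 145 CPM in the RUNX1-labelled library and 161 CPM in the control, a log2 ratio of -0.16 (-0.19 to -0.12) that turned to 0.05 without mitochondrial and ribosomal protein genes in the totals. GNB2 had 129 CPM in the RUNX1-labelled library and 107 CPM in the control, a log2 ratio of 0.27 (0.23 to 0.31). It was the only member above 0 with an interval clear of 0, and it stayed above 0 in all 7 alternative treatments of the data.

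The Gα members were also within 1.5-fold. GNAI2, the main Gαi subunit of lymphocytes, had 193 CPM in the RUNX1-labelled library and 221 CPM in the control, a log2 ratio of -0.19 (-0.23 to -0.16) that turned to 0.02 without mitochondrial and ribosomal protein genes in the totals. GNAI3, a second Gαi subunit, had 57.1 CPM in the RUNX1-labelled library and 75.8 CPM in the control, and its log2 ratio of -0.41 (-0.47 to -0.35) kept its sign in all 7 alternatives. GNA13, which couples receptors to RhoA and confines B cells to germinal centers, had 19.6 CPM in the RUNX1-labelled library and 20.4 CPM in the control, a log2 ratio of -0.05 (-0.16 to 0.05). The members had a median log2 ratio of -0.18 over all 10, or -0.16 without GNG11, beside -0.13 over all 7980 genes. That all-gene median moved by -0.13 with TMM factors, by -0.13 with median-of-ratios factors and by 0.21 with the reduced totals. Relative to it, GNG11 stood at -3.47, GNG7 at -0.77 and GNAI3 at -0.28, GNB2 at 0.40, and the other measured members between -0.07 and 0.22.

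**Figure D1:**
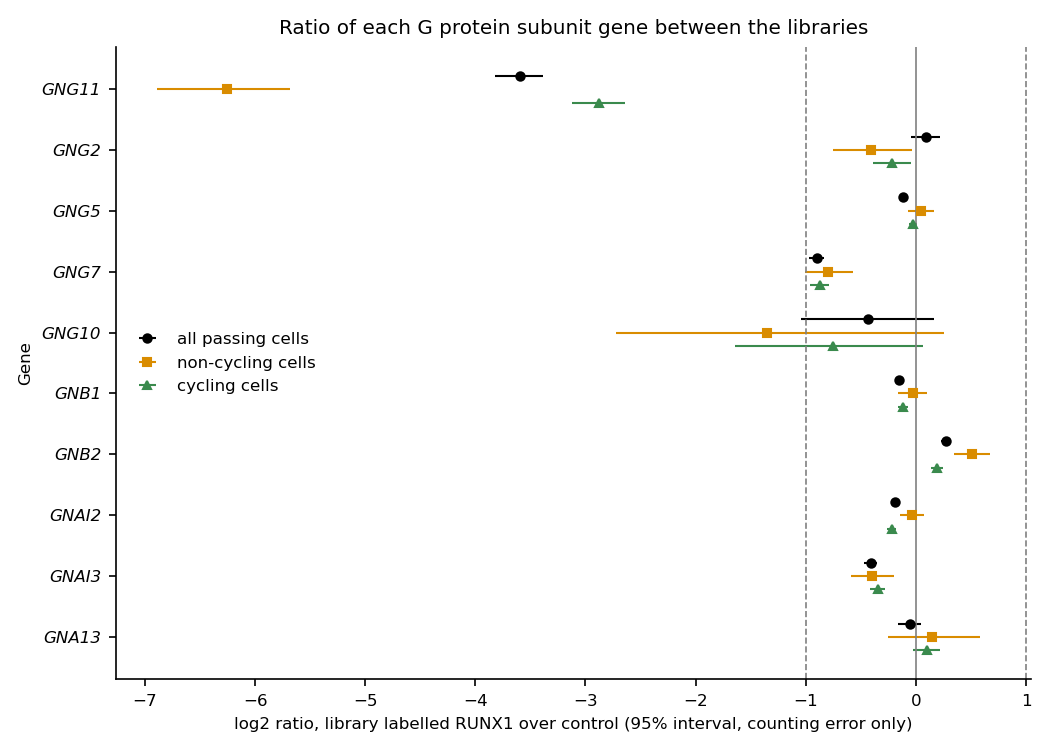
Log2 ratio of the RUNX1-labelled library over the control for the 10 genes, in all passing, non-cycling and cycling cells; bars are exact 95% intervals for counting error, the grey line marks 0 and dashed lines mark 2-fold. GNG11 lies at -3.60, -6.26 and -2.88, and GNG7 near -0.9, while the wide bars of GNG10 rest on at most 57 UMIs.

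GNG11 differed from the other members in how it followed the cell cycle, and the direction differed between the libraries. In the RUNX1-labelled library it had 0.848 CPM in G1, 5.08 CPM in S and 3.13 CPM in G2/M. In the control it had 64.8 CPM in G1, 32.9 CPM in S and 25.1 CPM in G2/M. Non-cycling cells thus held the lowest GNG11 level in the RUNX1-labelled library and the highest in the control, with no overlap of the counting intervals. These intervals take UMIs as independent. They are too narrow where GNG11 UMIs were clustered in cells, as in control non-cycling cells (variance over cells 3.46 times the mean after thinning). Median depth moved with state, at 12984.5 UMIs a cell in non-cycling and 20082 in cycling cells of the RUNX1-labelled library, and at 10542 and 13090 UMIs in non-cycling and cycling control cells, and its part in the levels was not tested. Within the RUNX1-labelled library, non-cycling over cycling cells gave 0.848 and 3.95 CPM, a log2 ratio of -2.22 (-2.86 to -1.62). Within the control, non-cycling over cycling cells gave 64.8 and 29.0 CPM, a log2 ratio of 1.16 (0.96 to 1.35).

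The ratio between the libraries was therefore not the same in both states. In non-cycling cells GNG11 had 27 UMIs in 2288 cells of the RUNX1-labelled library and 242 UMIs in 337 control cells, a log2 ratio of -6.26 (-6.89 to -5.68), 76.4-fold lower. In cycling cells it had 156 UMIs in 1900 cells of the RUNX1-labelled library and 2004 UMIs in 4848 control cells, a log2 ratio of -2.88 (-3.12 to -2.64), 7.35-fold lower. The non-cycling minus the cycling log2 ratio was -3.38 (-4.00 to -2.76), without a replicate check and with an interval too narrow for clustered UMIs. Among the measured members, 1 of 9 was at least 2-fold lower in non-cycling cells and 1 of 9 in cycling cells, GNG11 in both, and 0 were at least 2-fold higher. The shares of all genes were 5.86% lower and 8.07% higher in non-cycling cells, and 1.51% lower and 1.67% higher in cycling cells. In cycling cells 2 of 7705 genes had a lower ratio than GNG11, and in non-cycling cells 0 of 7922 genes.

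**Figure D2:**
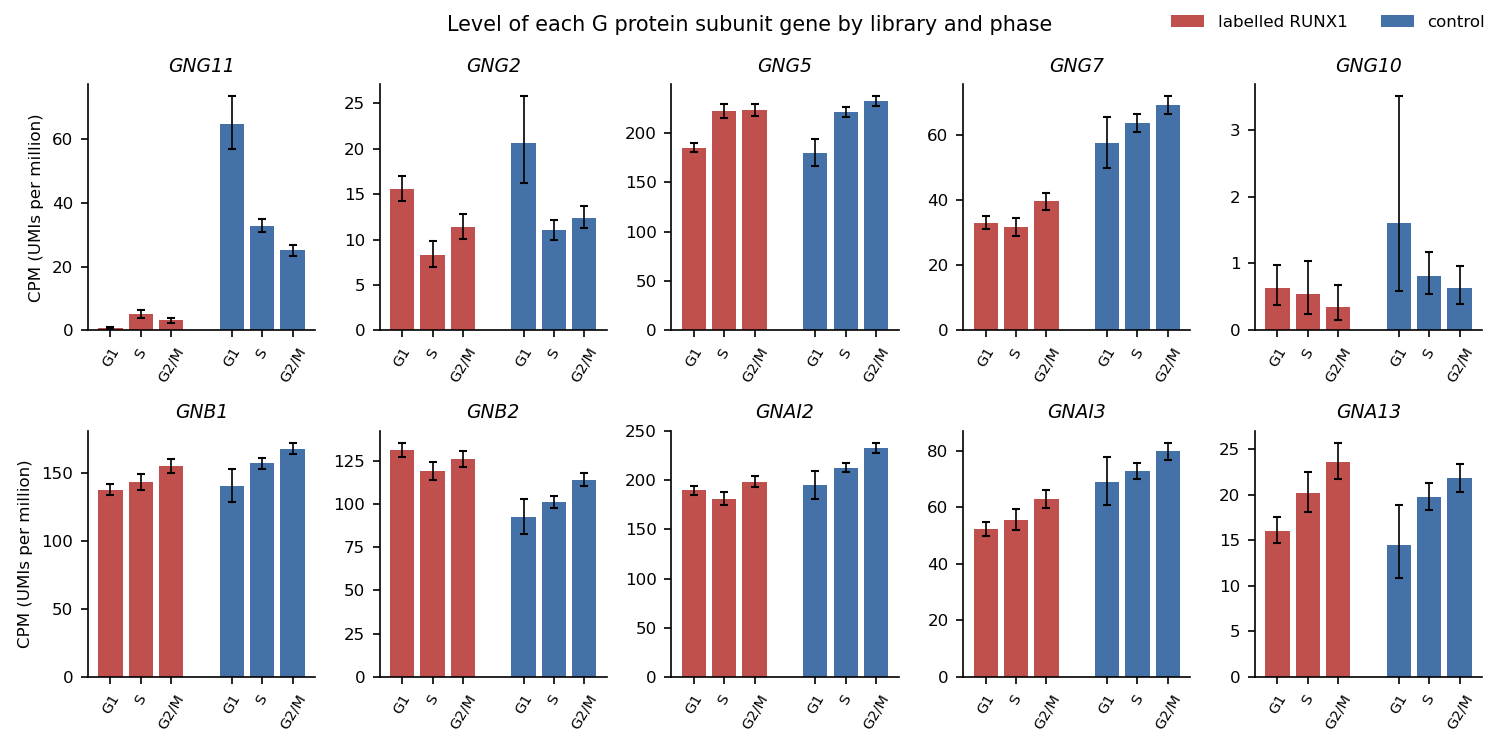
CPM of each gene in cells called G1, S and G2/M, in the RUNX1-labelled library (red, left) and the control (blue, right); error bars are exact 95% Poisson intervals and each panel has its own axis from 0. GNG11 runs at 0.848, 5.08 and 3.13 CPM in the RUNX1-labelled library and at 64.8, 32.9 and 25.1 CPM in the control, whereas GNG7 is lower and GNB2 higher in each phase of the RUNX1-labelled library.

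The other members kept more even levels over the phases. GNG5 was lowest in G1 in both libraries, at 185 CPM in the RUNX1-labelled library and 179 CPM in the control, and reached 223 CPM in G2/M of the RUNX1-labelled library and 232 CPM in G2/M of the control. GNG2 went the other way and was highest in G1, at 15.6 CPM in the RUNX1-labelled library and 20.6 CPM in the control. Its ratio between libraries, 0.09 over all cells, was -0.40 (-0.75 to -0.04) in non-cycling and -0.22 (-0.39 to -0.04) in cycling cells, and G1 cells made up a larger share of the RUNX1-labelled library. GNG7 was lower in the RUNX1-labelled library in every phase, with log2 ratios of -0.79 in G1, -1.01 in S and -0.80 in G2/M.

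GNB2 ran in opposite directions over the cell cycle in the libraries, though by little. Non-cycling over cycling cells gave a log2 ratio of 0.10 (0.04 to 0.16) in the RUNX1-labelled library and of -0.22 (-0.38 to -0.06) in the control. Its ratio between libraries was 0.51 (0.35 to 0.67) in non-cycling and 0.19 (0.14 to 0.24) in cycling cells. GNA13 was lower in non-cycling cells of both, with a log2 ratio over cycling cells of -0.47 in the RUNX1-labelled library and -0.52 in the control. GNB1 was within 1.2-fold between states in each library.

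When the control was reweighted to the state shares of the RUNX1-labelled library, 44.6% of UMIs in non-cycling cells instead of 5.13%, GNG11 came to 45.0 CPM, against 2.56 CPM in the RUNX1-labelled library. The log2 ratio over this reweighted control was -4.13, further from 0 than the -3.59 of the same cells without weights. The reweighted ratio of GNG7 was -0.84, that of GNB2 0.33 and that of GNG5 0.00162. These weighted values rest on 27 GNG11 UMIs in non-cycling cells of the RUNX1-labelled library and 242 in those of the control. The S and G2/M gene lists themselves were lower in the RUNX1-labelled library. Below 0 were 41 of 41 measured S genes and 52 of 52 measured G2/M genes, beside 60.1% of all measured genes. The phases were called with these same lists, so this count is not a separate observation from the share of cells called G1. The part of these lists in the member ratios other than through these states was not tested.

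GNG11 was spread unevenly over cells. After thinning to 8000 UMIs a cell, 52 of 4188 cells of the RUNX1-labelled library carried a GNG11 UMI (1.24%, 0.929 to 1.63), against 873 of 5185 control cells (16.8%, 15.8 to 17.9, exact Clopper-Pearson). Without thinning the shares were 2.17% in the RUNX1-labelled library and 23.5% in the control. In non-cycling cells the thinned shares were 0.612% in the RUNX1-labelled library and 24.6% in the control. In cycling cells they were 2.00% in the RUNX1-labelled library and 16.3% in the control. No barcodes of cells that should lack GNG11 were in the files, so no background share from free RNA could be given.

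The variance of thinned GNG11 counts over cells was 1.73 times their mean in the RUNX1-labelled library and 2.07 times in the control, where a value near 1 is what random sampling of an even level gives. For the other 9 genes this quotient lay between 0.992 and 1.10. The counting intervals assume random sampling, so those of GNG11 are too narrow where its quotient is above 1. Control non-cycling cells were the most uneven, with a quotient of 3.46 and up to 11 UMIs in a thinned cell, whereas no thinned non-cycling cell of the RUNX1-labelled library held more than 1. In whole cells, 17 of the 104 cells with GNG11 in the RUNX1-labelled library had 3 or more UMIs and held 43.8% of its GNG11 UMIs, against 242 of 1313 cells and 42.6% in the control. These are cells with a UMI at a given depth, not cells that express the gene, and a cell with 0 UMIs may still hold GNG11 transcripts.

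The few cells with GNG11 in the RUNX1-labelled library also differed from their neighbours in other genes. The 5 genes nearest to GNG11 by their centred log2(CPM + 1) profile over the 6 library and phase groups, out of 7979 genes, were EGFL7, EIF1AY, DDX3Y, CPNE2 and LYL1. EGFL7 codes for a secreted factor of endothelial and progenitor cells, LYL1 for a transcription factor of blood progenitors and CPNE2 for a calcium-dependent membrane-binding protein. EIF1AY and DDX3Y, a translation initiation factor and an RNA helicase, lie on the Y chromosome. EGFL7 was closest, with 5.51 CPM in the RUNX1-labelled library and 38.3 CPM in the control, a Pearson correlation of 0.985 with GNG11 over the 6 groups as a description, since the groups share 2 libraries.

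In thinned cells of the RUNX1-labelled library, EGFL7 had 74.5 CPM where a GNG11 UMI was present and 4.26 CPM where none was, a log2 ratio of 4.13 (3.52 to 4.70). In the control EGFL7 had 59.1 CPM in cells with GNG11 and 33.3 CPM in cells without, a log2 ratio of 0.83 (0.66 to 0.99). Within cycling cells alone the EGFL7 ratios were 4.26 in the RUNX1-labelled library and 0.81 in the control. EGFL7 was thus the one of the 5 genes whose interval lay above 0 in both libraries.

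LYL1 had 38.5 CPM in cells with and 8.01 CPM in cells without GNG11 in the RUNX1-labelled library, beside 48.4 CPM with and 49.5 CPM without in the control. CPNE2 had 40.9 CPM in cells with and 8.37 CPM in cells without GNG11 in the RUNX1-labelled library, beside 48.3 CPM with and 45.4 CPM without in the control. In both genes the cells with GNG11 of the RUNX1-labelled library stood near the control level and the cells without did not. This rests on 16 LYL1 UMIs (22.0 to 62.5 CPM) and 17 CPNE2 UMIs (23.8 to 65.4 CPM). In cycling cells with GNG11, LYL1 was at 26.3 CPM (11.4 to 51.9, 8 UMIs) in the RUNX1-labelled library and 45.7 CPM in the control. CPNE2 was at 46.1 CPM (14 UMIs) in the RUNX1-labelled library and 46.7 CPM in the control there. The other nearest genes did not follow this: EIF1AY had 28.8 CPM in cells with and 12.7 CPM in cells without GNG11 in the RUNX1-labelled library, beside 115 CPM with and 122 CPM without in the control. DDX3Y had 9.62 CPM (4 UMIs) in cells with and 5.80 CPM in cells without GNG11 in the RUNX1-labelled library, beside 45.2 CPM with and 51.0 CPM without in the control. DNTT, the terminal transferase of early B precursors, showed the same order, with 601 CPM in cells with and 168 CPM in cells without GNG11 in the RUNX1-labelled library, beside 659 CPM with and 567 CPM without in the control. VPREB1, a surrogate light chain gene, had 1575 CPM in cells with and 2473 CPM in cells without GNG11 in the RUNX1-labelled library, beside 946 CPM with and 1022 CPM without in the control. DNTT and VPREB1 were named here after their values were seen.

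Phase moved with these groups: 26.9% of the 52 cells with GNG11 in the RUNX1-labelled library were in G1, against 55.0% of the 4136 cells without. Within cycling cells, 38 with and 1862 without GNG11, the DNTT log2 ratio was 1.19 (0.98 to 1.39) and that of CPNE2 1.69 (0.80 to 2.47), while the LYL1 interval held 0 (1.04, -0.20 to 2.04). RUNX1 had 21.6 CPM in cells with and 28.1 CPM in cells without GNG11, and this interval held 0 as well. Neither GNG7 nor GNG5 differed between cells with and without GNG11 beyond counting error, in either library. The other members were compared without intervals, and GNB2 and GNG2 are named after their values were seen. GNB2 had 139 CPM with and 128 CPM without GNG11 in the RUNX1-labelled library, beside 90.6 and 108 CPM in the control. GNG2 had 2.40 CPM with and 13.4 CPM without GNG11 in the RUNX1-labelled library, beside 13.5 and 11.7 CPM in the control. Doublets or free RNA as a source of these cells were not tested, and none of the 10 barcodes shared by the libraries held a GNG11 UMI in the RUNX1-labelled library.

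**Figure D3:**
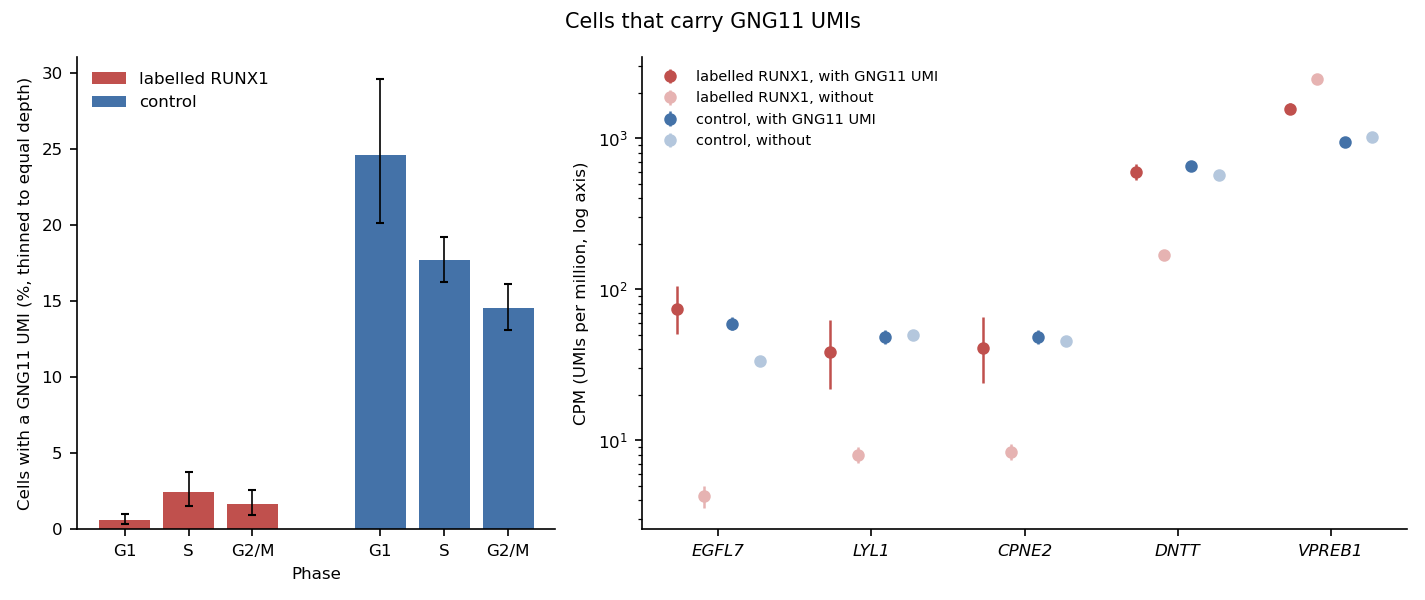
Left, percent of cells thinned to 8000 UMIs with at least 1 GNG11 UMI by phase, in the RUNX1-labelled library (red) and the control (blue), with Clopper-Pearson 95% intervals. Right, CPM of 5 genes on a log axis in thinned cells with and without a GNG11 UMI, with Poisson 95% intervals: DNTT stands at 601 CPM with and 168 CPM without GNG11 in the RUNX1-labelled library, and at 659 CPM with and 567 CPM without in the control.

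The make-up of each subunit family showed where the GNG11 difference weighed. The 12 Gγ genes together had 263 CPM in the RUNX1-labelled library and 343 CPM in the control, a log2 ratio of -0.38 that ranged between -0.51 and -0.17 over the other scalings. GNG11 made up 0.977% of Gγ UMIs in the RUNX1-labelled library and 9.08% in the control. In non-cycling cells its share was 0.352% in the RUNX1-labelled library and 19.4% in the control, where GNG7 took 17.2% in the control and the intervals of both shares overlapped. GNG5 took 78.6% of Gγ UMIs in the RUNX1-labelled library and 65.4% in the control, and GNG7 took 13.4% in the RUNX1-labelled library and 19.1% in the control. GNGT2, the other Gγ gene with UMIs whose product is known to be farnesylated, had 265 UMIs in the RUNX1-labelled library and 407 UMIs in the control.

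**Figure D4:**
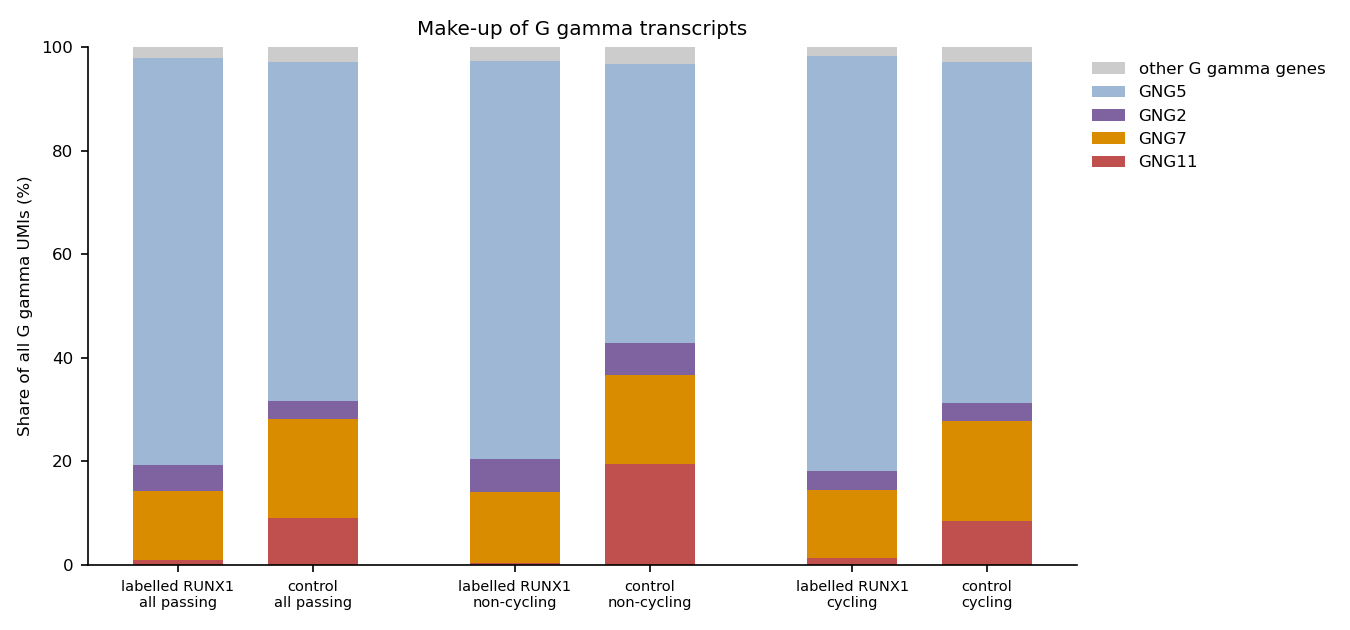
Percent of all Gγ UMIs from each gene, in all passing, non-cycling and cycling cells, with the RUNX1-labelled library left of the control in each pair. The GNG11 share over all passing cells is 0.977% in the RUNX1-labelled library and 9.08% in the control, and in non-cycling cells 0.352% in the RUNX1-labelled library and 19.4% in the control.

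The Gβ family summed to 320 CPM in both libraries over all passing cells, with a log2 ratio of 0.00149 (-0.02 to 0.03) that ranged between -0.13 and 0.21 over the other scalings. In non-cycling cells the sum was 316 CPM in the RUNX1-labelled library and 267 CPM in the control (log2 ratio 0.24, 0.15 to 0.34), and in cycling cells 317 CPM in the RUNX1-labelled library and 323 CPM in the control. Its make-up did differ. GNB4, a Gβ subunit of wide expression, had 15.8 CPM in the RUNX1-labelled library and 34.9 CPM in the control (log2 ratio -1.14). The GNB4 ratio was -1.01 in non-cycling and -0.81 in cycling cells. With the reduced totals, 0 measured Gβ genes were at least 2-fold lower and 1 at least 2-fold higher. GNB5, the Gβ subunit that pairs with RGS proteins, had 30.5 CPM in the RUNX1-labelled library and 16.5 CPM in the control, a log2 ratio of 0.88 that reached 1.67 in non-cycling and 0.48 in cycling cells. GNB2 took 40.3% of Gβ UMIs in the RUNX1-labelled library and 33.4% in the control.

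All 7 measured Gα genes were below 0, but only 4 with totals without mitochondrial and ribosomal protein genes, and 60.1% of all 7980 measured genes were below 0 by the full totals. GNA15, the Gαq-class subunit of blood cells, had 23.5 CPM in the RUNX1-labelled library and 49.6 CPM in the control, a log2 ratio of -1.08 (-1.16 to -0.99). The GNA15 ratio was -1.39 in non-cycling and -0.80 in cycling cells. With the reduced totals, 0 measured Gα genes were at least 2-fold lower. GNAI1 had 18.6 CPM in the RUNX1-labelled library and 31.2 CPM in the control (log2 ratio -0.74), the lowest ratio among the measured Gαi genes. GNAS, which codes for Gαs and activates adenylyl cyclase, took 70.8% of all Gα UMIs in the RUNX1-labelled library and 68.4% in the control. GNA12, a relative of GNA13, had 8.85 CPM in the RUNX1-labelled library and 11.4 CPM in the control. GNAQ had 0 UMIs in both libraries, which allows up to 0.0398 CPM in the RUNX1-labelled library and 0.0396 CPM in the control, by counting error only. Whether GNAQ reads could be counted with the reference used was not tested, so this 0 is not read as absence of the transcript.

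Genes that prenylate and trim CaaX proteins were counted next, as they process the Gγ tail. Of 4 measured genes, 3 were below 0, beside 60.1% of all measured genes. None passed 2-fold, beside 4.10% lower and 5.18% higher of all measured genes. Their median was -0.41, beside -0.13 over all measured genes. With the reduced totals it was -0.19, beside 0.08 over all measured genes. ICMT, which methylates the prenylated cysteine, had 17.9 CPM in the RUNX1-labelled library and 31.5 CPM in the control (log2 ratio -0.82). FNTA, the α subunit shared by farnesyl and geranylgeranyl transferase, had 54.7 CPM in the RUNX1-labelled library and 51.3 CPM in the control. The proteases RCE1 and ZMPSTE24 lay at log2 ratios of -0.30 and -0.51.

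Regulators that act on Gα divided in direction, with 5 of 9 measured genes below 0, beside 60.1% of all measured genes, and a median of -0.05 that turned to 0.16 with the reduced totals. None of the 9 was past 2-fold, beside 4.10% lower and 5.18% higher of all measured genes. GPSM3, a Gαi-binding protein of leukocytes, had 57.3 CPM in the RUNX1-labelled library and 32.5 CPM in the control (log2 ratio 0.82). RGS12, which speeds GTP hydrolysis, lay at -0.77, GPSM1, a further Gαi-binding protein, at -0.74 and the chaperone RIC8A at -0.38. Under 10 CPM in both libraries, RGS1 had 124 UMIs in the RUNX1-labelled library and 8 UMIs in the control (3.96, 2.94 to 5.21), and RGS13 had 87 UMIs in the RUNX1-labelled library and 4 UMIs in the control (4.45, 3.04 to 6.36). Of 8 measured receptor kinases, arrestins and Gβγ chaperones, 7 were below 0, or 5 with the reduced totals, beside 60.1% of all measured genes by the full totals. In this list 1 gene was at least 2-fold lower and 1 at least 2-fold higher, beside 4.10% lower and 5.18% higher of all measured genes. ARRB1, which codes for β-arrestin 1, had 6.66 CPM in the RUNX1-labelled library and 16.1 CPM in the control (log2 ratio -1.28). ARRB2, for β-arrestin 2, had 25.9 CPM in the RUNX1-labelled library and 30.5 CPM in the control (log2 ratio -0.23). GRK4 had 12.5 CPM in the RUNX1-labelled library and 5.56 CPM in the control (log2 ratio 1.17), while the receptor kinases GRK6 and ADRBK1 lay at -0.71 and -0.48.

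Among adenylyl cyclase and cAMP genes, 4 of 9 measured were below 0, beside 60.1% of all measured genes, with a median of 0.26. Of these 9, 1 was at least 2-fold lower, beside 4.10% of all measured genes. That gene was PRKAR1B, a regulatory subunit of protein kinase A, with 4.42 CPM in the RUNX1-labelled library and 12.5 CPM in the control (log2 ratio -1.50). Its relative PRKAR1A lay at 0.39, and the phosphodiesterases PDE4B and PDE7A at 0.99 and 0.32, though PDE4B was at -0.43 in cycling cells. Of the cyclases themselves, all under 10 CPM in both libraries, ADCY6 had 723 UMIs or 9.60 CPM in the RUNX1-labelled library and 165 UMIs or 2.18 CPM in the control (log2 ratio 2.14). ADCY5 had 254 UMIs in the RUNX1-labelled library and 14 UMIs in the control (4.19, 3.42 to 5.08), and ADCY3 lay at -1.09. Of the effectors of Gβγ and Gαq, PIK3CG and PREX1 were measured, at -0.40 and 0.30. The phospholipase gene PLCB4 was under 10 CPM in both, with 234 UMIs in the RUNX1-labelled library and 4 UMIs in the control (log2 ratio 5.88, 4.50 to 7.77). The effectors of Gα12 and Gα13 had 3 of 5 below 0, near the 60.1% of all measured genes, or 2 of 5 with the reduced totals. RHOA lay at -0.60, ROCK2 at -0.61 and the RhoA exchange factor ARHGEF1 at 0.72.

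Receptors of B cells that feed these subunits had 3 of 6 measured genes below 0, beside 60.1% of all measured genes, and a median of 0.22. None of the 6 was past 2-fold, beside 4.10% lower and 5.18% higher of all measured genes. CXCR4, the Gαi-coupled receptor for CXCL12, had 437 CPM in the RUNX1-labelled library and 259 CPM in the control (log2 ratio 0.76). LPAR5, a receptor for lysophosphatidic acid, lay at 0.92. P2RY8, which couples to Gα13, had 11.5 CPM in the RUNX1-labelled library and 19.6 CPM in the control (log2 ratio -0.78). GPR18, a Gαi-coupled receptor of lymphocytes, lay at 0.49 over all cells, at -0.39 in non-cycling and at 0.58 in cycling cells. Of the receptors under 10 CPM in both libraries, PTGER4, a prostaglandin E2 receptor coupled to Gαs, had 727 UMIs in the RUNX1-labelled library and 210 UMIs in the control, a log2 ratio with an interval of 1.58 to 2.03. CCR7, the receptor for lymph node chemokines, had 181 UMIs in the RUNX1-labelled library and 6 UMIs in the control (4.92, 3.77 to 6.39), and CNR2, a cannabinoid receptor of B cells, had 144 UMIs in the RUNX1-labelled library and 19 UMIs in the control (2.93). S1PR1, which responds to sphingosine 1-phosphate, lay at 1.52 over all cells and at 0.05 (-0.63 to 0.71) in cycling cells. The genes under 10 CPM given in this and the preceding lists were named after their values were seen. Over all passing cells, several had ratios farther from 0 than that of GNG11. In cycling cells RGS1 had 10 UMIs in the RUNX1-labelled library and 5 UMIs in the control (log2 ratio 1.81). In the same order, RGS13 had 6 and 2 UMIs (2.39) and PLCB4 12 and 3 UMIs (2.81). ADCY5 had 46 and 12 UMIs (2.74) and CCR7 21 and 5 UMIs (2.88), beside -2.88 for GNG11.

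**Figure D5:**
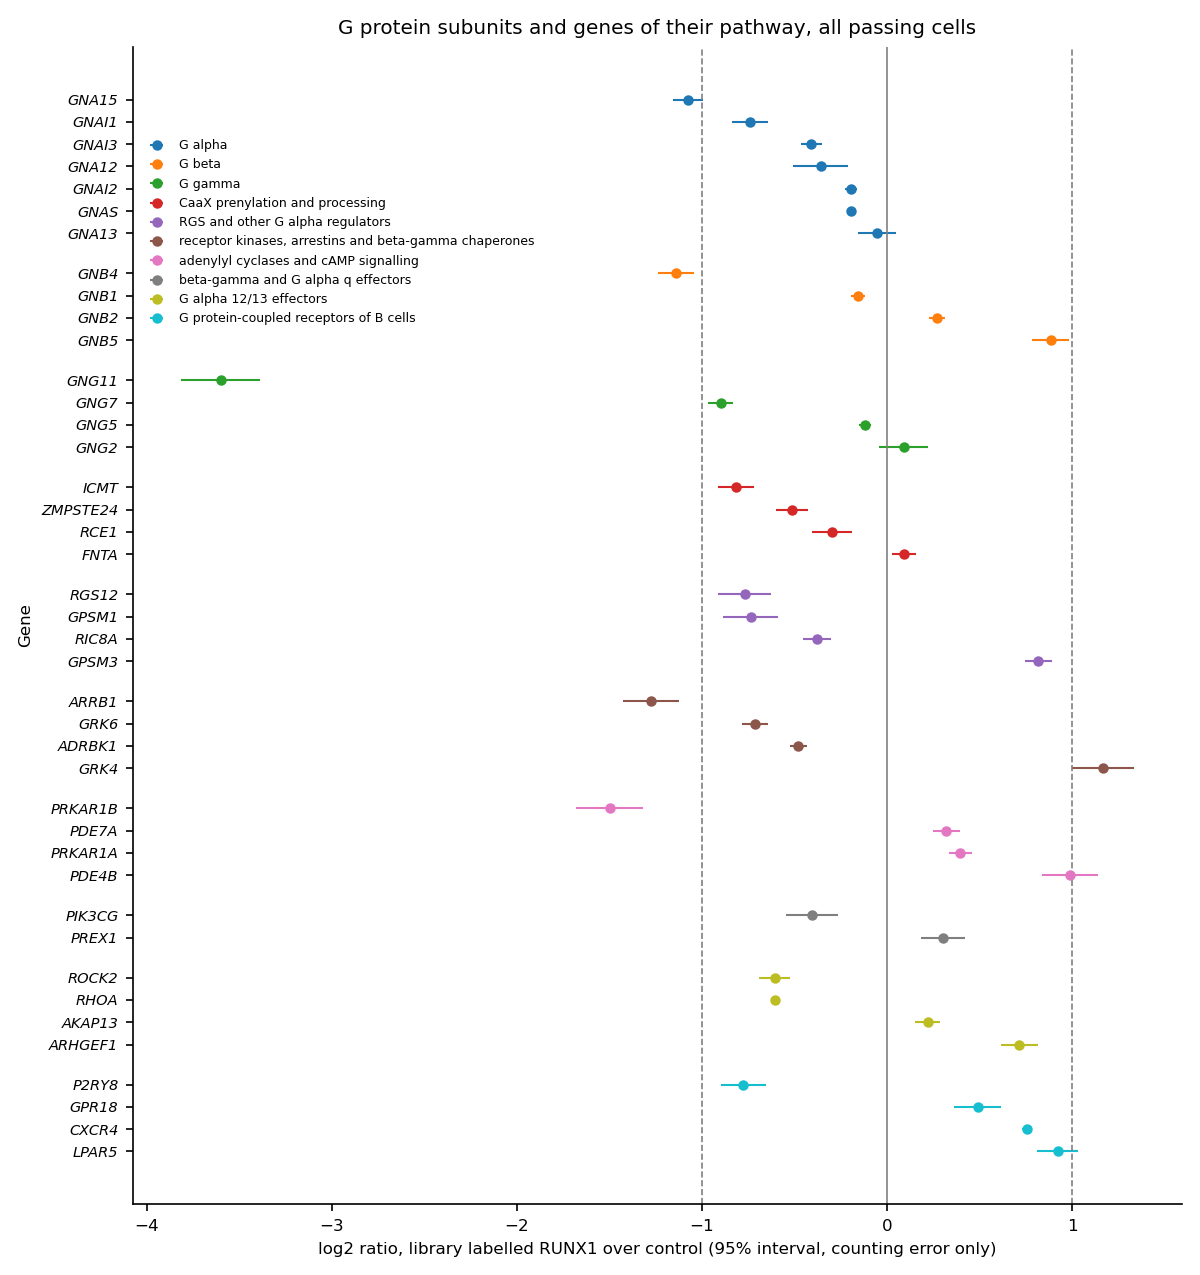
Log2 ratio of the RUNX1-labelled library over the control in all passing cells for measured subunit genes and for up to 4 genes with the largest ratios of each pathway list, with exact 95% intervals for counting error; dashed lines mark 2-fold. Among the genes drawn, all of which reached 10 CPM in either library, GNG11 is lowest at -3.60 and PRKAR1B next at -1.50.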

How the data were processed

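Human UMI counts per gene and cell of 2 scRNA-seq libraries were used, 1 per group by genotype label. The deposited counts are raw; per the labels the authors made them in Cell Ranger 3.0.2, with hg19 and mm10 named as builds, and further counting settings are not given in the sources used here. Cells with over 2000 and under 6000 genes and under 20% mitochondrial UMIs were kept, as in the study. UMIs were summed over cells and scaled to CPM, and ratios were taken without a pseudocount, with genes called measured if they reached 10 CPM in either library. Intervals are 95%: Poisson for CPM, Clopper-Pearson for shares, conditional binomial for ratios, all covering counting error only. Those for CPM and ratios take UMIs as independent. Cells were thinned to 8000 UMIs and phases were scored over both libraries together in scanpy 1.11.5 with 42 S and 54 G2/M genes. Doublets were not removed. A count of 0 allows up to 3 UMIs.

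The members and the gene lists were chosen with earlier results of these data known. Named were all members, measured genes of the 3 subunit families, up to 4 genes with the largest ratios of each list, and the 5 genes nearest to GNG11. Alternatives changed scaling (edgeR 4.0.16 TMM in R 4.3.3, median of ratios, totals without mitochondrial and ribosomal protein genes), cell filter, weighting, depth, phase calls and thresholds. The ratios and intervals were run on simulated independent counts, the model they assume. This checks the calculation only, and clustering of UMIs in cells was not simulated. Positions are from GENCODE v44lift37 and promoters from RefSeq. Calculations ran in Python 3.11.15 (scipy 1.17.1, numpy 2.4.6, pandas 2.3.3).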

Additional observations from a re-analysis of the deposited data

Results flagged for a closer look

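GNG11 in non-cycling over cycling cells went in opposite directions in the libraries. Its log2 ratio was -2.22 in the RUNX1-labelled library (27 and 156 UMIs) and 1.16 in the control (242 and 2004 UMIs), with both counting intervals clear of 0. Both intervals are too narrow, since GNG11 UMIs were clustered in cells. The difference between the libraries was not tested, since each group had 1 library.

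GNB2 also went in opposite directions, with a log2 ratio of non-cycling over cycling cells of 0.10 in the RUNX1-labelled library and -0.22 in the control. This difference was not tested either.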

How the results depend on the processing

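GNG11 was below 0 and past 2-fold in all 7 alternative treatments of the data, at log2 ratios of -3.39 with totals without mitochondrial and ribosomal protein genes, -2.13 in cells under 10% mitochondrial UMIs, -3.87 with cells weighted equally and -3.95 in thinned cells. The other 3 settings left it within its counting interval. Members at least 2-fold lower numbered 1, and 2 with TMM factors, median of ratios or a 1.5-fold threshold, where GNG7 joined. Genes at least 2-fold lower numbered 327, against 498 with TMM, 497 with median of ratios, 151 without mitochondrial and ribosomal protein genes and 502 at a floor of 1 CPM; genes higher numbered 413, and 1608 at that floor. Of the genes past 2-fold, 55.8% were higher, against 41.0%, 41.1% and 80% under the 3 other scalings in the order TMM, median of ratios and reduced totals. The share of cells with a GNG11 UMI was 2.17% in the RUNX1-labelled library and 23.5% in the control without thinning, and when thinned to 4000 UMIs it was 0.750% in the RUNX1-labelled library and 10.1% in the control. Phases called without thinning, and leaving out cells near the phase limit or barcodes shared by the libraries (both chosen after seeing the data), left all 20 member ratios by state, and all 10 over all cells, within their counting intervals. No paired analysis was possible because each group had 1 library. With 1 library per group, no value here measures variation between cultures, and counts under 60 UMIs such as those of GNG10 cannot show a difference of 1.5-fold.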

Other observations

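The barcodes left out by the cell filter also held GNG11. In the RUNX1-labelled library, 691 such barcodes had 14 GNG11 UMIs, or 2.29 CPM (1.25 to 3.84), and in the control 475 barcodes had 58 UMIs, or 37.2 CPM (28.3 to 48.1). These levels were near those of the passing cells of each library, 2.57 CPM in the RUNX1-labelled library and 31.2 CPM in the control.

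The Gγ genes under 10 CPM in both libraries included GNG12, with 102 UMIs in the RUNX1-labelled library and 272 UMIs in the control, a log2 ratio of -1.41 (-1.75 to -1.07). Among the low Gα genes, GNA11, the closest relative of GNAQ, had 74 UMIs in the RUNX1-labelled library and 262 UMIs in the control, a log2 ratio of -1.82 (-2.21 to -1.44). Near-identical copies of GNG5 held 26 UMIs in the RUNX1-labelled library and 31 UMIs in the control, and adding them left the GNG5 ratio at -0.12.

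The 7 annotated endothelial markers summed to 13.1 CPM in the RUNX1-labelled library and 28.1 CPM in the control, a log2 ratio of -1.10, most of it from ESAM. ESAM, an adhesion molecule, had 10.1 CPM in the RUNX1-labelled library and 27.3 CPM in the control (log2 ratio -1.44). CDH5, the defining cadherin of endothelial cells, had 154 UMIs in the RUNX1-labelled library and 12 UMIs in the control, or 2.04 CPM in the RUNX1-labelled library and 0.158 CPM in the control, and TEK had 0 UMIs in both. EMCN had 19 UMIs in the RUNX1-labelled library and 26 UMIs in the control over all cells, counts that differed far less than its ratios by state. In non-cycling cells it had 13 UMIs in the RUNX1-labelled library and 9 UMIs in the control (log2 ratio -2.56, -3.90 to -1.16). In cycling cells it had 1 UMI in the RUNX1-labelled library and 16 UMIs in the control (-3.19, -8.58 to -0.51). These counts are too few to settle its level. GNG12, GNA11, EMCN and CDH5 were singled out after their values were seen.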
